A study of Mus musculus with 24 samples.

Results

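The genes described here encode the pathway that displays peptides on MHC class I molecules. They are the heavy chains H2-D1 and H2-K1, the light chain B2m, the peptide transporter Tap1 and Tap2, the loading factor Tapbp, the immunoproteasome subunits Psmb8, Psmb9 and Psmb10, and the transactivator Nlrc5. These 10 genes were chosen by name and looked up by Ensembl identifier among the 37991 gene identifiers of the count files. The identifier listed for 9 of them was found and passed the low-count filter. The RNA level of Psmb9 was not analysed here, only its promoter. The RNA was from the cerebellum of male mice of the inbred strain C57BL/6J, aged 79 weeks (2 libraries) or 7 weeks (2 libraries). The series holds 24 samples, of which the 20 genomic ones were not analysed here.

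In this pathway the proteasome cuts cytosolic proteins into peptides, and interferon-inducible subunits can take the place of constitutive ones in its catalytic core. The transporter TAP carries the peptides into the endoplasmic reticulum, where tapasin helps load them onto a heavy chain paired with beta-2 microglobulin. The loaded complex goes to the cell surface, where CD8 T cells and natural killer cells read it. In healthy brain, class I transcripts are known mainly from microglia and endothelial cells, with low amounts in neurons.

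Reads counted on genes numbered 18901921 and 22826993 for age 79 weeks, against 16367656 and 21124608 for age 7 weeks. A count of 0 allows at most 0.13 to 0.187 CPM, that is, counts per 1000000 after TMM scaling. That limit and the count intervals below cover counting error only. Whether each library was made from its own mouse is not in the labels. A p-value here therefore reflects library-to-library spread only, and that spread may be technical. Of 15292 genes tested by edgeR's quasi-likelihood test, 1352 passed an adjusted p of 0.05 (8.84%), 637 of them higher and 715 lower at 79 weeks, or 901 higher and 484 lower with library size scaling. The library of 79-week replicate 1 stood apart in choroid plexus markers, with a summed level of 5460 CPM against 42.1 CPM in 79-week replicate 2, and with 18.0 and 32.4 CPM at 7 weeks. The 7-week replicate 1 library stood apart in the class I genes themselves, as described below, and the class I results are given with and without it.

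Of the 9 class I presentation genes tested, 3 rose at 79 weeks in edgeR's quasi-likelihood test, 0 fell and 6 were not called, against 4.17% of all tested genes called higher. The genes that rose were Tap2, Tapbp and B2m, by 2.74-fold, 1.49-fold and 1.71-fold. The fitted log2 fold change was above 0 for all 9 under each of the 4 scalings tried, against 51.7% of all tested genes with TMM. Its median was 0.77, against 0.01 over all tested genes. Without 7-week replicate 1 the median of the 9 was 0.40, against 0.01 over all tested genes, and 8 of the 9 were above 0. The 79-week libraries both exceeded both 7-week libraries in 6 of the 9, against 29.1% of all tested genes. In bulk tissue, a change in the number of cells of a type and a change in RNA per cell cannot be told apart. Without 7-week replicate 1, edgeR called 0 of the 9 and 0 of all genes (4 of the 9 and 2610 of all genes at an unadjusted p under 0.05), while DESeq2 called 1 of the 9 and 235 of all genes.

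**Figure D1:**
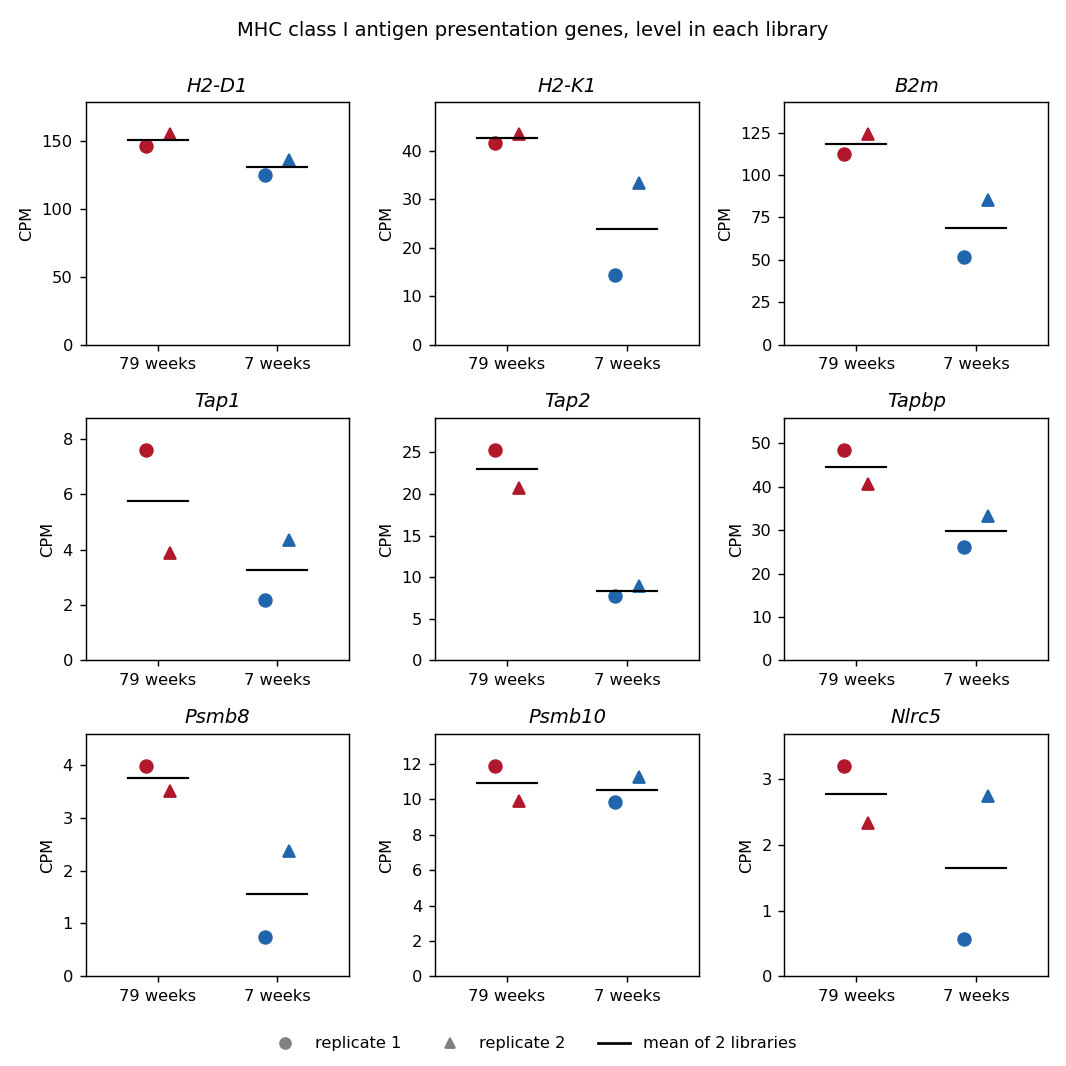
Level of each class I presentation gene in CPM (y axes, each starting at 0) in the 79-week libraries (red, left) and the 7-week libraries (blue, right), with replicate 1 as a circle, replicate 2 as a triangle and the mean of 2 libraries as a line. Tap2 is at 20.7 and 25.3 CPM at 79 weeks, above 7.79 and 8.93 CPM at 7 weeks, while 7-week replicate 1 lies far below 7-week replicate 2 for H2-K1, Psmb8 and Nlrc5.

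The heavy chains bind the peptide and are what T cells recognise. H2-D1 (ENSMUSG00000073411) stood at 146 and 155 CPM in the 79-week libraries, against 125 and 136 CPM in the 7-week libraries. The ages did not overlap, but the lowest 79-week value was 1.07 times the highest 7-week value. The difference was not called (log2 fold change 0.20, SE 0.06, adjusted p = 0.0789), although it was with library size scaling (adjusted p = 0.0379). Leaving out 7-week replicate 1 gave 0.14 for H2-D1 (adjusted p = 0.372). H2-K1 (ENSMUSG00000061232) stood at 41.7 and 43.5 CPM at 79 weeks, against 14.5 and 33.4 CPM at 7 weeks. Its 79-week libraries lay close together, and its 7-week libraries differed 2.31-fold from each other. H2-K1 was not called (log2 fold change 0.81, SE 0.30, adjusted p = 0.136). Leaving out 7-week replicate 1 gave a log2 fold change of 0.34 (adjusted p = 0.205), and leaving out 7-week replicate 2 gave 1.56 (0.0338). Leaving out 79-week replicate 1 or 2 gave 0.83 and 0.77, which edgeR called (adjusted p = 0.0104 and 0.0207) and DESeq2 did not (1 and 0.979).

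Within a library, the ratio of H2-K1 to H2-D1 counts compares both heavy chains without any scaling between libraries. It was 0.285 and 0.28 at 79 weeks, against 0.115 and 0.246 at 7 weeks. The 7-week replicate 1 library was thus the low one by this measure too. H2-D1, H2-K1 and the other class I heavy chains are close paralogs, and reads aligned to more than 1 place, 8.02% to 8.25% of each library, were not counted for any gene. How reads were split between them is uncertain.

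B2m (ENSMUSG00000060802), the light chain shared by class I molecules, rose 1.71-fold. It stood at 112 and 124 CPM at 79 weeks, against 52.0 and 85.6 CPM at 7 weeks, so the ages did not overlap. The mean was 118 ± 8.30 CPM at 79 weeks and 68.8 ± 23.8 CPM at 7 weeks (SD, n = 2 each), with a log2 fold change of 0.77 (SE 0.19, edgeR adjusted p = 0.0485). That call ended in DESeq2 (adjusted p = 0.176) and in edgeR with robust dispersion estimates (adjusted p = 0.313). It also ended when 7-week replicate 1 was left out (log2 fold change 0.46), as every edgeR call did. It held without each of the other libraries in edgeR, with adjusted p from 0.000197 to 0.0338, while DESeq2 with 1 library left out called it without 7-week replicate 2 and in no other such fit. The ratio of B2m to H2-D1 counts was 0.77 and 0.8 at 79 weeks, against 0.415 and 0.629 at 7 weeks.

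The promoters of these genes are shown because class I heavy chain and B2m promoters are known for shared control by interferon, NF-kB and an NLRC5-bound module with X and Y boxes. RefSeq windows of build GRCm38.p6, from 250 bases before to 50 bases after the start, were listed for 8 of the 10 genes. The H2-D1 window is chr17:35262844-35263143 on the plus strand, the H2-K1 window chr17:34000298-34000597 on the minus strand, and the B2m window chr2:122147437-122147736 on the plus strand. Each is written 5′ to 3′ on its gene's strand. Capitals mark every match, on either strand, to the motifs TGACG (core of the cAMP response element, as in the X2 box), ATTGG (inverted CCAAT, as in the Y box), GAANNGAAA (a variant interferon-stimulated response element) and TTCNNNGAA (gamma-activated site), and to 3 longer motifs given by name: the interferon-stimulated response element core, the NF-kB motif and the class I kB site. In capitals, the class I kB site is the earliest run in H2-D1 and H2-K1, and the earliest run in B2m holds the response element core. No motif contains another. The variant element and the class I kB site were added after the promoters were read.
H2-D1: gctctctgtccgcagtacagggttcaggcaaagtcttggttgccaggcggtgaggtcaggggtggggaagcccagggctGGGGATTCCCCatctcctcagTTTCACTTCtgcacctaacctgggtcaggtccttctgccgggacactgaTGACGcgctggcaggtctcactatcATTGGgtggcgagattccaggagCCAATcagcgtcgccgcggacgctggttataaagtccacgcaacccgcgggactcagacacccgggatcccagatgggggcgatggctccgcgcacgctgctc
H2-K1: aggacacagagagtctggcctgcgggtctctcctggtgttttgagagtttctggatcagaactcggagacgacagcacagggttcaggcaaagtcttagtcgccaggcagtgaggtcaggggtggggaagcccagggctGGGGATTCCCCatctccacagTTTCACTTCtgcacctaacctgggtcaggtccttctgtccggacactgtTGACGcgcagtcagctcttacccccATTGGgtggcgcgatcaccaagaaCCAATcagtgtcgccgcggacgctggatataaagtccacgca
B2m: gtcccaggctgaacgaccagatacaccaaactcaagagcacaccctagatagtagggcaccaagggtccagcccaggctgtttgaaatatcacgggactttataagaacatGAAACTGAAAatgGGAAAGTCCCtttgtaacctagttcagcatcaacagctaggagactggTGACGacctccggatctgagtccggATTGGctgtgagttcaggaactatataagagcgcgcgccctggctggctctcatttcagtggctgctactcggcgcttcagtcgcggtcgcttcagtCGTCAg

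The H2-D1 and H2-K1 windows aligned over 228 columns, of which 90.4% were identical. Both held the class I kB site and GAANNGAAA, which 0.0304% and 7.52% of the 32851 promoter windows in the table hold. In these 2 windows the motifs stood in 1 order from 5′ to 3′: the kB site, the interferon element, then TGACG, then ATTGG, and last ATTGG on the other strand. The B2m window held the response element core, the NF-kB motif, TGACG and ATTGG, in that order, and then TGACG on the other strand after the start. The response element core was present in 3.44% of all windows and the NF-kB motif in 1.63%. TGACG was found in 5 of the 8 windows, against 20.8% of all windows, and ATTGG in 6 of the 8, against 37.4%. The 8 windows are not independent, since those of Tap1 and Psmb9 share 275 bases with 1 TGACG and 1 ATTGG counted in both. The near-identical windows of H2-D1 and H2-K1 also each add to both counts. TTCNNNGAA was found in 1 of the 8, that of Psmb8, against 8.3%. A match describes letters in a window and does not show a bound site.

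Tap1 and Tap2 form the transporter that moves peptides into the endoplasmic reticulum. Tap2 (ENSMUSG00000024339) stood at 25.3 and 20.7 CPM at 79 weeks, against 7.79 and 8.93 CPM at 7 weeks. Every 79-week value was at least 2.32 times every 7-week value, the widest gap among the 9 genes. It rose 2.74-fold (log2 fold change 1.45, SE 0.14, edgeR adjusted p = 0.00379) and ranked 41 of 15292 tested genes by p. Tap2 stayed called under every alternative with all libraries. With 1 library left out, its log2 fold change ranged between 1.30 and 1.59. Tap2 was called in each such fit except edgeR without 7-week replicate 1, where every edgeR call ended. DESeq2 called it without that library.

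Tap1 (ENSMUSG00000037321) stood at 7.61 and 3.89 CPM at 79 weeks, against 2.18 and 4.34 CPM at 7 weeks. The ages overlapped, since 79-week replicate 2 lay below 7-week replicate 2, and the gene was not called (log2 fold change 0.79, SE 0.41, adjusted p = 0.262). With 79-week replicate 1 left out it was 0.23 (adjusted p = 0.756), and with 79-week replicate 2 left out it was 1.19 (0.00697). With 7-week replicate 1 left out Tap1 was at 0.40 (0.704), and with 7-week replicate 2 left out at 1.39 (0.213). The ratio of Tap1 to Tap2 counts was 0.301 and 0.188 at 79 weeks, against 0.28 and 0.486 at 7 weeks, so both subunits did not keep to 1 ratio across libraries. The difference between the fold changes of Tap1 and Tap2 was not tested.

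Tap1 lies beside the immunoproteasome genes, in the order Psmb9, Tap1, Psmb8 and Tap2 among protein-coding genes of chromosome 17 in RefSeq's GRCm38.p6 annotation. Its promoter is shown because Psmb9 is transcribed from it in the opposite direction. The Tap1 and Psmb9 starts lie 226 bases apart, and 275 bases of their windows are shared. The Tap1 window, chr17:34187306-34187605 on the plus strand, is written in the same way.
Tap1: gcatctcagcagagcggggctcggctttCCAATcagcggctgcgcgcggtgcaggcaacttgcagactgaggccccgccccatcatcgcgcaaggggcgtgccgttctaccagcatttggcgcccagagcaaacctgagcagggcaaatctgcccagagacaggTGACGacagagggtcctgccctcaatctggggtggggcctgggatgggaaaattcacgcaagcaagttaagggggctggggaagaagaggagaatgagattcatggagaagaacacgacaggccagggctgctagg

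This window held 1 TGACG and, on the other strand, 1 ATTGG, and no match to the interferon, gamma-activated or NF-kB letters searched. The same TGACG and ATTGG lie in the Psmb9 window on the opposite strand. No window was listed for Tap2 or Nlrc5.

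Tapbp (ENSMUSG00000024308) encodes tapasin, which holds the transporter next to empty class I molecules. It stood at 48.5 and 40.5 CPM at 79 weeks, against 26.2 and 33.2 CPM at 7 weeks. The ages did not overlap, and Tapbp rose 1.49-fold (log2 fold change 0.57, SE 0.13, edgeR adjusted p = 0.0409). DESeq2 with all libraries called it too (adjusted p = 0.00396). In edgeR the call ended when 7-week replicate 1 was left out (log2 fold change 0.41), as every edgeR call did, or 7-week replicate 2 (0.76). In DESeq2 it ended when 79-week replicate 1 was left out (log2 fold change 0.44) or 7-week replicate 1 (0.41).

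Other proteins of peptide loading and trimming were measured in 9 genes, and edgeR called 0 in either direction, against 8.84% of all tested genes. At an unadjusted p under 0.05 it had 2, Calr and Lnpep, and DESeq2 with all libraries called 1 of the 9. Their median log2 fold change was -0.10. The chaperones Calr and Canx, which fold and hold empty class I molecules, had log2 fold changes of -0.26 and -0.12 (adjusted p = 0.105 and 0.211). The ratio of Tapbp to Calr counts was 0.181 and 0.148 at 79 weeks, against 0.0741 and 0.114 at 7 weeks. Erap1, the peptidase that trims peptides in the endoplasmic reticulum, had a log2 fold change of 0.26 (adjusted p = 0.339).

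Psmb8 and Psmb10 encode catalytic subunits of the immunoproteasome, in place of the constitutive Psmb5 and Psmb7. Psmb8 (ENSMUSG00000024338) stood at 3.99 and 3.50 CPM at 79 weeks, against 0.75 and 2.36 CPM at 7 weeks. The low 7-week value rests on 12 reads (exact Poisson 95% interval 0.386 to 1.31 CPM). The ages did not overlap, but the 7-week libraries differed 3.16-fold and the gene was not called (log2 fold change 1.22, SE 0.45, adjusted p = 0.135). Leaving out 7-week replicate 1 gave 0.66 (adjusted p = 0.373), and leaving out 7-week replicate 2 gave 2.31 (0.068).

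Psmb10 (ENSMUSG00000031897) stood at 11.9 and 9.90 CPM at 79 weeks, against 9.84 and 11.2 CPM at 7 weeks. The ages overlapped, and the log2 fold change was 0.04 (SE 0.15, adjusted p = 0.888), which turned to -0.10 without 79-week replicate 1 and to -0.05 without 7-week replicate 1. Set against the subunit it replaces, Psmb8 had a count ratio to Psmb5 of 0.206 and 0.176 at 79 weeks, against 0.0323 and 0.112 at 7 weeks. For Psmb10 over Psmb7 the ratio was 0.203 and 0.166 at 79 weeks, against 0.164 and 0.18 at 7 weeks. Between the ages the Psmb8 ratios did not overlap and the Psmb10 ratios did.

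Of the 14 constitutive subunits of the proteasome core, 0 were called by edgeR, against 8.84% of all tested genes. Their log2 fold changes lay between -0.17 and 0.17. Psmb5 and Psmb7 had log2 fold changes of -0.17 and -0.05 (adjusted p = 0.294 and 0.645). Psmb4 and Psma7, with the highest mean CPM of the list, had log2 fold changes of -0.06 and 0.04 (adjusted p = 0.571 and 0.751). The interferon-inducible activator subunits Psme1 and Psme2 had log2 fold changes of 0.43 and 0.20 (adjusted p = 0.104 and 0.303), and the most abundant of that list, Psme3 and Pomp, had -0.03 and 0.01 (0.752 and 0.976). By edgeR 0 of the 8 genes of the activator and assembly list were called, against 8.84% of all tested genes. DESeq2 with all libraries called 0 in both lists, and at an unadjusted p under 0.05 edgeR had 1 gene in each, Psmb6 and Psme1.

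Nlrc5 (ENSMUSG00000074151) encodes the transactivator of class I genes. It stood at 3.21 and 2.33 CPM at 79 weeks, against 0.56 and 2.75 CPM at 7 weeks. The low value, of 7-week replicate 1, rests on 9 reads (exact Poisson 95% interval 0.256 to 1.06 CPM), and the 7-week libraries differed 4.91-fold, the widest of the 9 genes. The ages overlapped and Nlrc5 was not called (log2 fold change 0.69, SE 0.58, adjusted p = 0.493). With 7-week replicate 1 left out it was 0.00 (adjusted p = 0.997), and with 7-week replicate 2 left out it was 2.29 (0.0942).

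**Figure D2:**
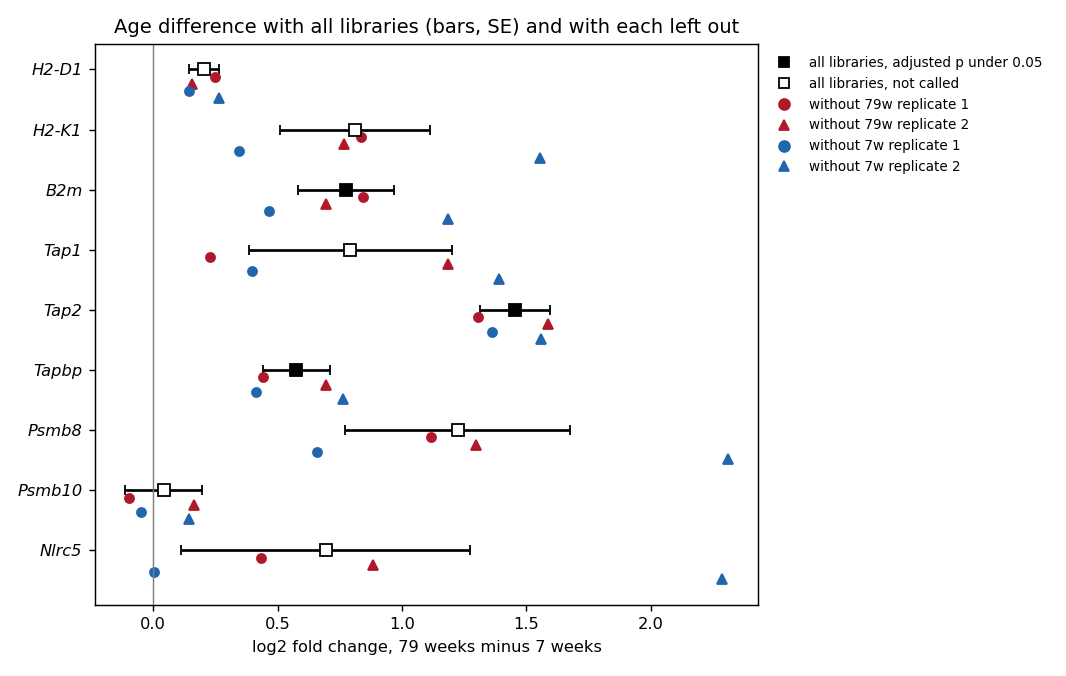
Log2 fold change of each class I presentation gene, 79 weeks minus 7 weeks, with all libraries (squares with SE bars, filled where the adjusted p is under 0.05) and with each library left out (coloured points). Leaving out 7-week replicate 1 puts Nlrc5 at 0.00 and H2-K1 at 0.34, and leaving out 7-week replicate 2 puts them at 2.29 and 1.56, while Tap2 stays between 1.30 and 1.59.

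The 7-week libraries differed from each other in the same direction in all 9 genes, with replicate 2 above replicate 1 and a median ratio of 1.65, against 1.003 over all tested genes. In 5 of the 9 (H2-K1, B2m, Tap1, Psmb8 and Nlrc5) replicate 2 was at least 1.5 times replicate 1, as in 4.7% of all tested genes. The 7-week libraries differed at least 2-fold in 3 of the 9, as in 3.18% of all tested genes, and the 79-week libraries in 0 of the 9, as in 3.56%. The 79-week libraries had no such common direction, with replicate 1 above replicate 2 in 6 of the 9. Set against 7-week replicate 2 alone, the 79-week mean was 2.58 times as high for Tap2, 1.58 times for Psmb8, 1.38 times for B2m and 1.34 times for Tapbp. It was 1.32 times as high for Tap1, 1.27 times for H2-K1, 1.11 times for H2-D1, 1.01 times for Nlrc5 and 0.97 times for Psmb10. No test bears on the spread within an age, which holds 2 libraries.

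Other class I heavy chains and class I-like genes were tested in 14 of 25 listed genes. H2-T22 (ENSMUSG00000056116), a nonclassical heavy chain, rose 1.41-fold, at 30.1 and 28.7 CPM at 79 weeks against 20.4 and 21.1 CPM at 7 weeks (edgeR adjusted p = 0.0177). Leaving out 7-week replicate 1 or 2 ended that call in edgeR, and in DESeq2 leaving out any library did. Without 7-week replicate 1 every edgeR call ended, so that loss is not particular to H2-T22. The other 13 were not called, while 4.17% of all tested genes were called higher. The median log2 fold change over the 14 was 0.52, against 0.01 over all tested genes. H2-Q4, H2-Q6 and H2-Q7, named after their values were seen, showed the widest gaps within an age. H2-Q7 stood at 2.64 and 4.41 CPM at 79 weeks, against 0.125 and 5.36 CPM at 7 weeks, on 2 and 111 reads in the 7-week replicates. H2-Q6 stood at 3.26 and 3.80 CPM at 79 weeks, against 0.312 and 5.65 CPM at 7 weeks. H2-Q4 stood at 7.72 and 9.94 CPM at 79 weeks, against 1.74 and 10.2 CPM at 7 weeks. In all 3, 7-week replicate 1 was the lowest library and 7-week replicate 2 the highest, and these genes are close paralogs whose reads may be split.

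**Figure D3:**
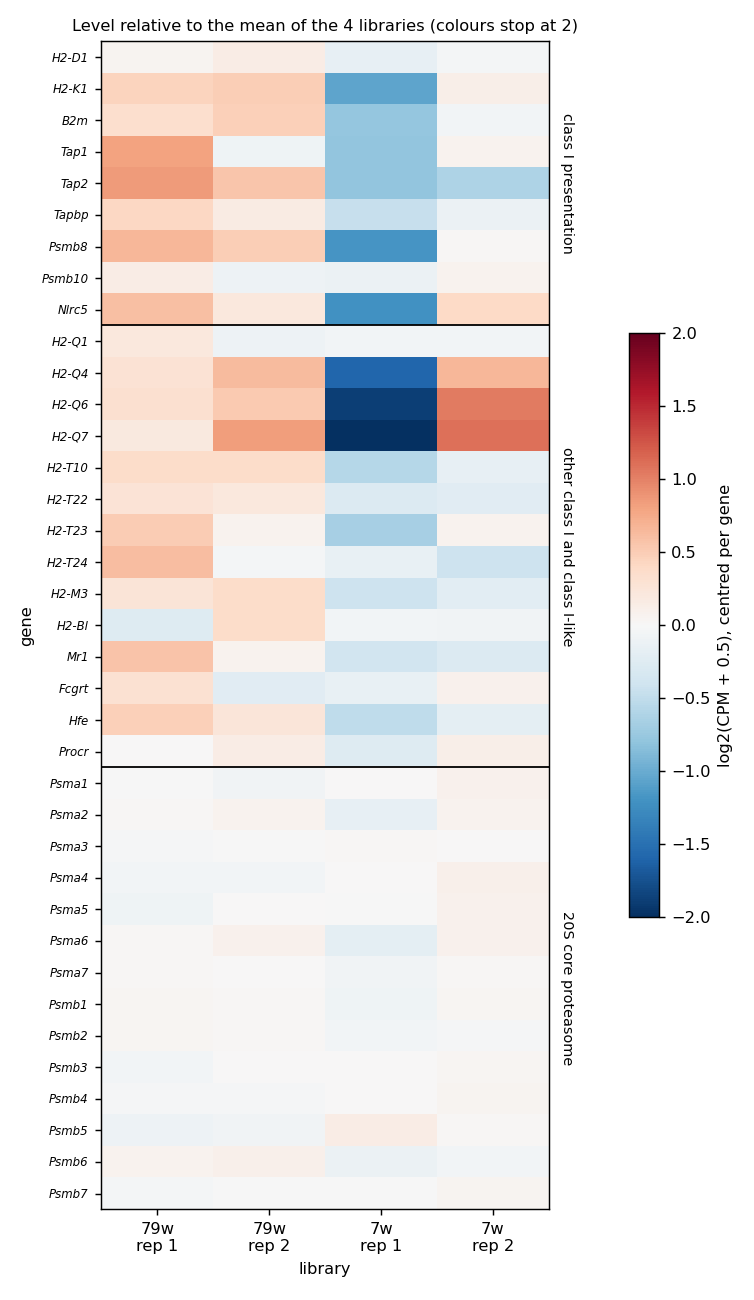
Colour gives log2(CPM + 0.5) in each library (columns, 79 weeks left of 7 weeks) relative to the gene's mean over the 4 libraries, for class I presentation genes, other class I genes and proteasome core subunits (rows); colours stop at 2. The 7-week replicate 1 column is blue for H2-K1, Psmb8, Nlrc5, H2-Q4, H2-Q6 and H2-Q7, and the proteasome core rows are near white in every library.

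Among 18 transcription regulators of class I genes, 3 rose and 0 fell, against 4.17% and 4.68% of all tested genes. Their median log2 fold change was 0.15, against 0.01 over all tested genes. The interferon regulatory factor genes Irf7 and Irf9 rose 4.81-fold and 1.57-fold (edgeR adjusted p = 0.0165 and 0.031). Irf7 stood at 9.63 and 5.14 CPM at 79 weeks, against 1.12 and 1.88 CPM at 7 weeks. Irf9 stood at 32.9 and 25.02 CPM at 79 weeks, against 18.9 and 17.8 CPM at 7 weeks. For both genes 79-week replicate 1 was the highest library and the ages did not overlap. Neither Irf7 nor Irf9 was called by edgeR when 7-week replicate 1 or 2 was left out. Without 7-week replicate 1 every edgeR call ended, so that loss is not particular to these genes. DESeq2 did not call them without 79-week replicate 1 or without 7-week replicate 1. Rfx5 and Creb1, which bind the X boxes of class I promoters, had log2 fold changes of 0.30 and -0.25 (adjusted p = 0.0541 and 0.0567).

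Of 13 listed genes of interferon signalling, 10 were tested (receptors, kinases and the feedback genes Socs1, Socs3 and Usp18). Of these, 0 rose and 1 fell, against 4.17% and 4.68% of all tested genes. The median log2 fold change was 0.03, against 0.01 over all tested genes. Usp18 had the highest of the list, 1.54 (SE 0.50, edgeR adjusted p = 0.0979), and was not called. It stood at 3.83 and 1.56 CPM at 79 weeks, against 0.685 and 1.11 CPM at 7 weeks. The interferon gamma receptor subunit gene Ifngr2 fell to 32.3 and 33.5 CPM at 79 weeks, against 46.7 and 41.5 CPM at 7 weeks (log2 fold change -0.42, SE 0.09, edgeR adjusted p = 0.0301). Ifngr2 was not called by edgeR when 7-week replicate 1 or 2 was left out, or by DESeq2 with any library left out. Without 7-week replicate 1 every edgeR call ended, so that loss is not particular to Ifngr2. The ligand genes Ifng, Ifnb1 and Ifna4 were not tested and had 0 reads in every library, which allows up to 0.155 and 0.13 CPM at 79 weeks and up to 0.187 and 0.145 CPM at 7 weeks.

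**Figure D4:**
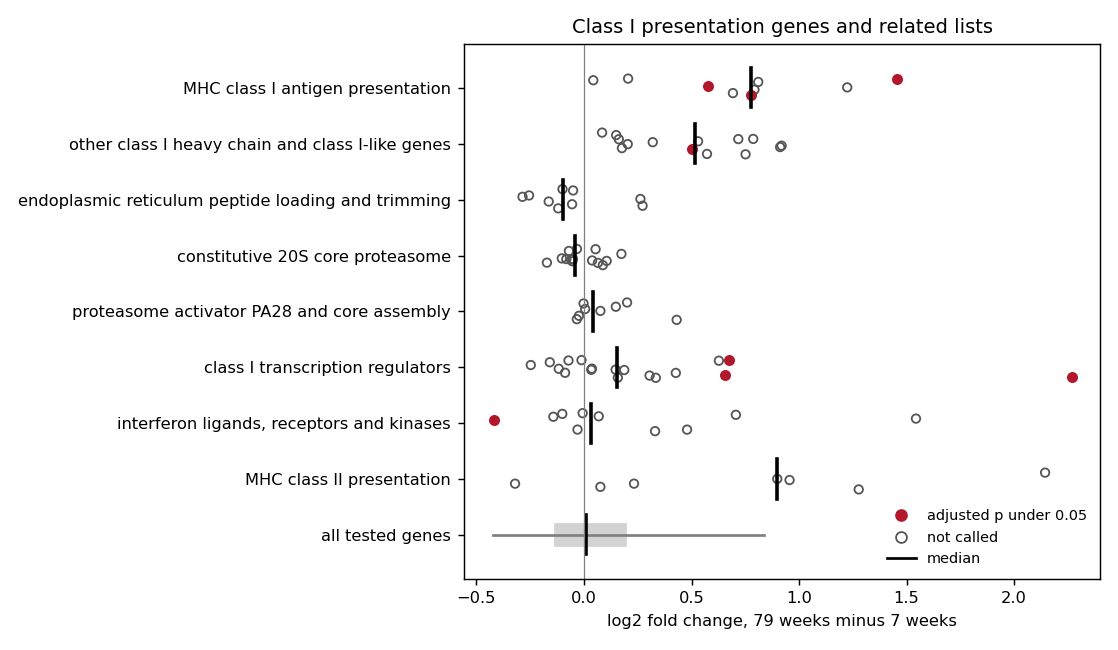
Log2 fold change, 79 weeks minus 7 weeks, of each tested gene (points, filled red where the adjusted p is under 0.05) in the class I presentation genes and related lists, with the list's median as a black line; for all tested genes the box spans the middle quartiles and the line the 5th to 95th percentiles. The class I presentation median is at 0.77 and the constitutive proteasome core lies between -0.17 and 0.17.

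Markers of cells that carry class I genes were read in the same libraries. Microglia markers rose in 5 of 15 genes, against 4.17% of all tested genes. They summed to 195 and 232 CPM at 79 weeks, against 136 and 146 CPM at 7 weeks. Both 79-week libraries lay above both 7-week libraries in 14 of the 15, against 29.1% of all tested genes. In 1, Fcrls, both lay below (log2 fold change -0.78, edgeR adjusted p = 0.101). Csf1r, a growth factor receptor gene of microglia, rose 1.45-fold (edgeR adjusted p = 0.0472), at 38.1 and 49.5 CPM at 79 weeks against 28.4 and 31.9 CPM at 7 weeks. Between the 7-week libraries the microglia markers had a median ratio of 1.05, and 0 of 15 reached 1.5 times. Endothelial markers summed to 318 and 350 CPM at 79 weeks, against 298 and 318 CPM at 7 weeks, with 0 of 15 higher and 1 lower. Markers fell in 7 of 13 granule neuron genes, 6 of 12 Purkinje cell genes and 6 of 12 oligodendrocyte genes, and rose in 0 of each, against 4.68% of all tested genes called lower. Of 12 Bergmann glia and astrocyte markers, 1 rose and 2 fell. All of these marker calls ended in edgeR without 7-week replicate 1, where it called 0 of all genes. Lymphocyte markers summed to 2.18 and 2.25 CPM at 79 weeks, against 1.25 and 0.917 CPM at 7 weeks, with 1 of 18 passing the low-count filter and 2 at 0 in every library. No lymphocyte marker had more than 21 reads in any library, too few to compare the ages gene by gene. The T cell coreceptor gene Cd8a had 2 and 2 reads at 79 weeks, against 0 and 0 at 7 weeks. Cd2 went the other way, with 0 and 0 reads against 1 and 1. Cd8b1 (0 and 2 against 0 and 0) and Cd4 (3 and 1 against 4 and 1) overlapped.

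Choroid plexus markers were high in 79-week replicate 1. At 7 weeks, replicate 2 was at least 1.5 times replicate 1 in 6 of 8 tested genes, against 4.7% of all tested genes. Some of these ratios rest on few reads in 7-week replicates 1 and 2, with 3 and 9 for Ttr and 3 and 6 for F5, while Otx2 had 118 and 325. Ependymal markers summed to 48.0 and 16.3 CPM at 79 weeks, against 10.2 and 9.27 CPM at 7 weeks. Meninges and fibroblast markers summed to 1310.4 and 859 CPM at 79 weeks, against 819 and 1019.5 CPM at 7 weeks. Without 79-week replicate 1, the median log2 fold change of the class I presentation genes in edgeR was 0.44, against 0.0007 over all tested genes. With all libraries these medians were 0.77 and 0.01. The part of these cell types in the class I differences was not tested.

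**Figure D5:**
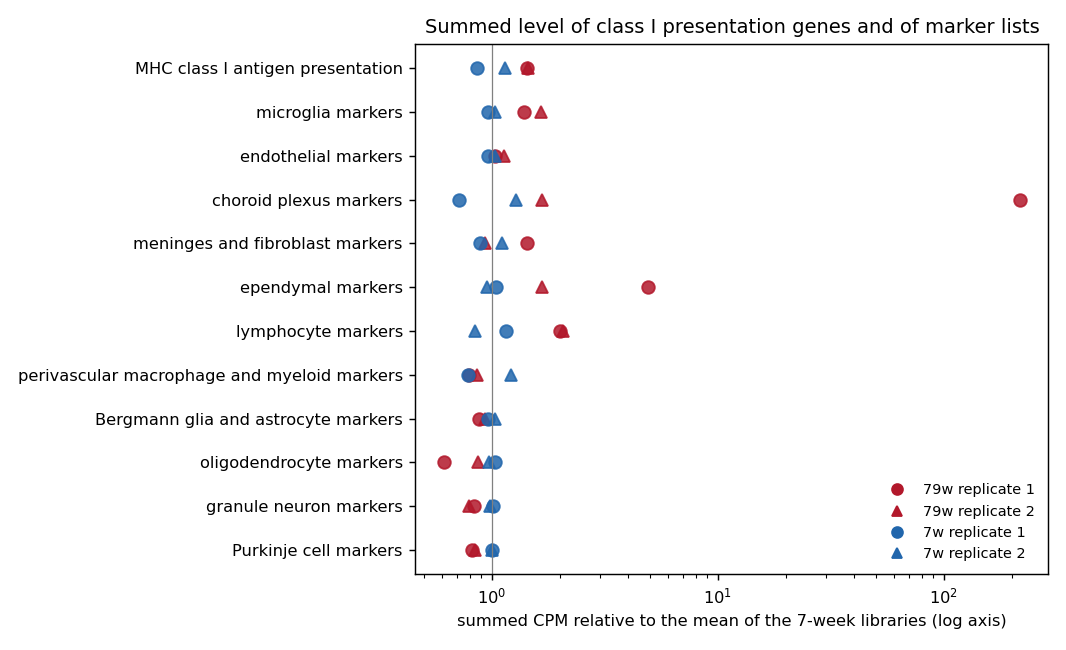
Summed CPM of the class I presentation genes and of each marker list in each library, relative to the mean of the 7-week libraries (log axis), with 79-week libraries in red and 7-week libraries in blue. The class I genes sum to 401 and 404 CPM at 79 weeks and to 239 and 318 CPM at 7 weeks, and the choroid plexus point far to the right is 79-week replicate 1.

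By Euclidean distance between centred log2(CPM + 0.5) profiles over the 4 libraries, the 5 genes nearest to the median profile of the class I genes were Kcna3, Ifit2, H2-T23, Hbb-bs and Per1, among 11517 candidates with a mean of at least 5 CPM. That median profile stood at 0.44 and 0.21 at 79 weeks, against -0.79 and 0.02 in 7-week replicates 1 and 2. Its widest departure was thus the low 7-week replicate 1. Distances ran between 0.148 for Kcna3, a potassium channel gene, and 0.239 for the clock gene Per1. None was called by edgeR (adjusted p from 0.0767 to 0.239). Among the class I genes themselves, B2m lay nearest to the median profile (0.301) and Tap2 farthest from it (0.827). H2-T23, a nonclassical heavy chain, stood at 10.8 and 7.91 CPM at 79 weeks, against 4.55 and 7.91 CPM at 7 weeks. The interferon-stimulated gene Ifit2 stood at 8.75 and 7.04 CPM at 79 weeks, against 2.93 and 6.27 CPM at 7 weeks. In Kcna3, Hbb-bs and Per1 too, 7-week replicate 1 was the lowest library, at 3.43, 15.4 and 104 CPM. Their 7-week replicate 2 stood at 6.47, 25.1 and 154 CPM.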

How the data were processed

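Gene expression was measured by RNA-seq in 4 cerebellum libraries, 2 per age. Per the submitters' processing notes, cutadapt, STAR and HTSeq are among the tools and mm9 among the builds; neither versions nor whether counting used strand is given in the sources used here. The authors deposited raw read counts per Ensembl gene, and rows that name no gene (not unique, ambiguous and the like) were kept out of library sizes. Reads not unique made up 8.02% to 8.25% of a library and ambiguous ones 0.696% to 0.766%.

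Symbols were taken from the identifier table, which named 32919 of 37991 identifiers. Low counts were filtered with filterByExpr, libraries were scaled by TMM, and all 15292 genes were fitted together with edgeR 4.0.16 (glmQLFit and glmQLFTest, 79 weeks minus 7 weeks, Benjamini-Hochberg adjusted p under 0.05) in R 4.3.3. The SE given for an edgeR fit is the absolute log2 fold change divided by the square root of the test's F statistic. The code was tested on simulated data. No gene lengths were used, so levels are not compared between genes. Named genes are the 10 members, called genes of each related list (where none was called, the 2 with the highest mean level), up to 2 most abundant genes of a marker list and the 5 nearest profiles. Some genes that this rule names are not reported here. Other genes named were chosen after their values were seen. Members and lists were chosen with earlier results of these data known. Alternatives were other scalings and filters, DESeq2 1.42.0, limma 3.58.1 (voom), robust dispersion, a replicate block and each library left out. Promoters were read from RefSeq's GRCm38.p6 table and aligned with Biopython 1.88; no coordinates were taken from the count files. The first listed window was used for H2-K1, which has 2.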

Additional observations from a re-analysis of the deposited data

How the results depend on the processing

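The count of class I presentation genes called higher was 3 with TMM, RLE and upper-quartile scaling, limma-voom and a filter of 1 CPM, 4 with library size scaling, and 2 with DESeq2 and with robust dispersion. In these fits 7.93% to 11.4% of all tested genes were called in either direction. Without a low-count filter the count was 7 of 9, with 18 called in the related lists. That fit called 3051 of 23285 tested genes (13.1%), 1602 higher and 1449 lower. With 1 library left out, edgeR called 0 to 6 of the 9, 0 to 19 of the related lists and 0 to 2425 of all genes (0 to 1360 higher, 0 to 1065 lower), and DESeq2 called 1 to 4 of the 9 and 0 to 6 of the lists. Over all genes DESeq2 then called 379 and 654 without 79-week replicate 1 and 2 (144 and 337 higher, 235 and 317 lower), and 235 and 421 without 7-week replicate 1 and 2 (81 and 169 higher, 154 and 252 lower). The low end in edgeR is the fit without 7-week replicate 1, and the cause was not tested. With 1 library left out, the log2 fold change of Psmb10 ranged between -0.0957 and 0.165 in edgeR, below 0 without 79-week replicate 1 and without 7-week replicate 1 (-0.0499). In DESeq2 these were -0.0952 and -0.0523.

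Replicate numbers are shared between the ages, but the deviations of same-numbered libraries had a correlation of -0.106 over 15292 genes, and the labels do not say what a number marks, so the numbers were not taken as pairs. The replicate block gave 1396 calls (9.13% of all tested genes) and 4 of the 9, adding H2-K1 (0.90, edgeR adjusted p = 0.0407). The crossed pairing, added after seeing the data, gave 2014 calls (13.2% of all tested genes, 1010 higher and 1004 lower). It called 6 of the 9 and 14 in the related lists.

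Within 100 bases before the start, windows of the class I genes held TGACG in 3, ATTGG in 4, GAANNGAAA in 1 and TTCNNNGAA in 1 of 8, against 10.5%, 18.9%, 2.31% and 2.55% of all such windows. The response element core, the NF-kB motif and the class I kB site were in 0, against 0.983%, 0.597% and 0.0122%. These counts depend on the listed start, from which TGACG began at -101 in H2-D1 and at -41 in H2-K1. Each age has 2 libraries, and the lowest class I count was 9 reads, for Nlrc5; what depth limits was not tested.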

Other observations

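MHC class II genes, which present peptides to CD4 T cells, were tested in 7 of 11 listed genes. Of these, 0 were called by edgeR (2 at an unadjusted p under 0.05), against 8.84% of all tested genes called. Cd74, the invariant chain, stood at 8.23 and 2.68 CPM at 79 weeks, against 1.99 and 3.52 CPM at 7 weeks. H2-DMa, which helps load class II molecules, stood at 2.43 and 3.20 CPM at 79 weeks, against 4.05 and 3.04 CPM at 7 weeks. H2-Aa stood at 4.35 and 1.21 CPM at 79 weeks, against 1.495 and 1.45 CPM at 7 weeks. In 2 of the 7 tested genes both 79-week libraries lay above both 7-week libraries. H2-Eb1 stood at 3.31 and 2.03 CPM at 79 weeks, against 0.748 and 1.40 CPM at 7 weeks. H2-DMb1 stood at 2.12 and 0.778 CPM at 79 weeks, against 0.0623 and 0.531 CPM at 7 weeks, on 1 and 11 reads. For Cd74, H2-Aa, H2-Eb1 and H2-DMb1, 79-week replicate 1 had the top value. The choroid plexus marker sum was also highest in that library, and its part here was not tested. The median log2 fold change of the list was 0.90 with all libraries and -0.14 without 79-week replicate 1. Genes for receptors of class I molecules had at most 13 reads in any library, and 0 of 10 found in the files passed the low-count filter.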
